A study of Rattus norvegicus with 9 samples.

Results

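RNA of rats made diabetic (DB) was compared with RNA of healthy rats (HE) over 6 libraries, 3 per group, out of 9 in the series. The 6 were taken by their group labels, DB replicates 1, 2 and 6 and HE replicates 2, 3 and 4, and the 3 libraries of diabetic rats given black bean extract entered no step. All rats were male Wistar rats of wild type genotype, labelled as day 31, and their age is not given in the sources used here. DB rats were kept on a high fat diet, received 1 intraperitoneal injection of 25 mg/kg streptozotocin (STZ) in citrate buffer, and were given water daily by gavage. HE rats stayed on standard diet and were injected with the buffer alone. Diet, STZ and gavage therefore cannot be told apart in this comparison. The labels give the tissue as adipose, which the study describes as retroperitoneal fat. Column names match the sample titles in group and number, but close with a different letter whose meaning no source used here gives, so the tissue is given as labelled. Separate animals are implied only by the numbers in the titles. The p-values therefore rest on the spread of these 3 libraries per group, which may be partly technical. In limma they also rest on variance shared between genes, since the variance of each gene is drawn toward a trend over all genes.

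STZ is a glucose analogue that enters pancreatic beta cells and damages their DNA, which lowers insulin secretion, and a high fat diet makes tissues less sensitive to insulin. White adipose tissue stores triglyceride. Insulin acts on it by raising glucose uptake and fatty acid synthesis and by holding back lipolysis, so that enzymes such as the desaturase Scd are well known insulin responsive genes. Adipocytes are also identified by secreted hormones (adiponectin, leptin) and by proteins of the lipid droplet (perilipin, Cidec).

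The libraries held 2771967 to 3373400 reads in the DB group and 3034825 to 3542749 reads in the HE group, summed over 32883 genes. In the files the reads of each library are divided by 1 size factor, so that 1 read is worth a value of 0.672 to 0.913, and these normalized values are not corrected for gene length. Some reads enter these sums more than once, since 1478 genes share identical reads with a further gene over the 6 libraries. Between libraries of 1 group the correlation of log2(value + 1) across genes was 0.960 to 0.967, and between groups it was 0.958 to 0.963. The first principal component (24.8% of the variance) had the DB libraries at -42.4, -20.6 and -25.9 and the HE libraries at 16.2, 36.6 and 36.2. DB replicate 2 stood apart on the second (20.6%), at -58.6, while the other 5 libraries had 0.30 to 34.2. The 10 largest genes of each library took 17.8%, 19.2% and 17.8% of its reads in DB replicates 1, 2 and 6, against 11.5%, 16.1% and 10.2% in HE replicates 2, 3 and 4.

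The defining adipocyte markers were present in every library and none of them passed the test between groups. Adiponectin (Adipoq) had values of 71.2, 66.4 and 65.8 in the DB libraries, against 58.4, 67.6 and 59.3 in the HE libraries. Leptin (Lep) had 194, 233 and 156 in the DB libraries, against 183, 212 and 218 in the HE libraries. For perilipin 1 (Plin1) the range was 91.2 to 104 in the DB libraries and 75.7 to 117 in the HE libraries. Their groups overlapped. Fabp4, the fatty acid binding protein of mature adipocytes, had 8.10 to 14.6 in the DB libraries and 10.7 to 14.0 in the HE libraries. Over the 20 adipocyte markers tested the summed value was 1311 to 1526 in the DB libraries and 1389 to 1579 in the HE libraries. None was at 0, 0 of 20 passed in limma, edgeR or DESeq2, and 2 had an unadjusted p under 0.05 (Thrsp and G0s2, both lower in DB). Hepatocyte markers were present as well, with albumin (Alb) at 263, 251 and 283 in the DB libraries, against 486, 738 and 541 in the HE libraries. So were markers of other tissues. The median of the mean values was 58.6 over the adipocyte list and 73.7 over the hepatocyte list. It was 88.4 for neuron, 88.8 for kidney and adrenal, 60.7 for skeletal muscle and 28.6 for pancreas markers. All 1140 olfactory receptor genes that were tested, genes of the nasal epithelium, had reads in every library. Their median value was 17.8 to 18.3 by library, above Fabp4 in each, beside 57.5 to 58.3 for protein coding genes. Having reads therefore does not by itself set a marker apart here.

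**Figure D1:**
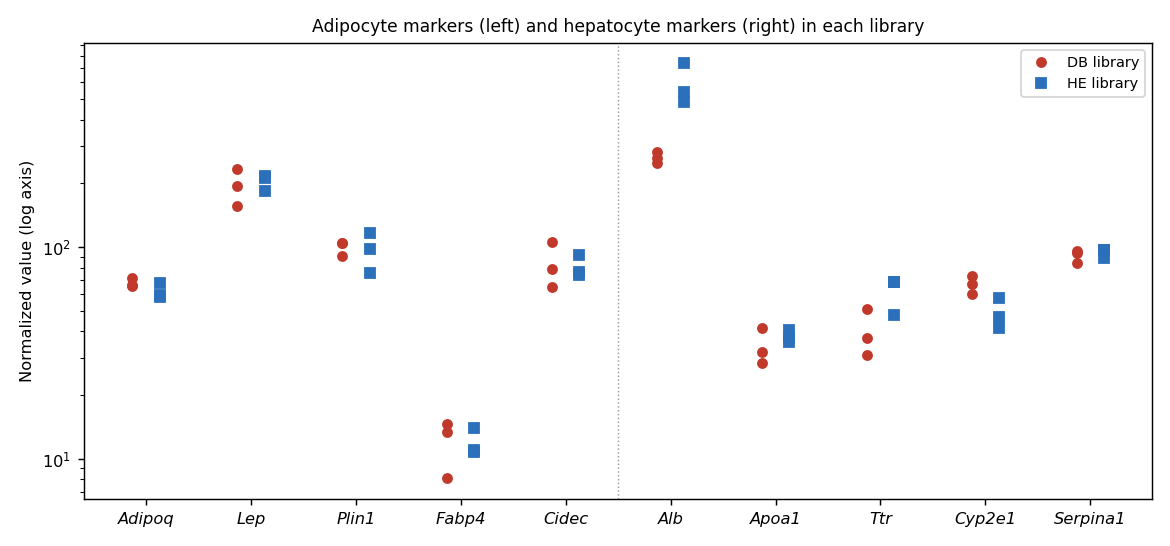
Normalized values (log axis) of 5 adipocyte and 5 hepatocyte markers in each of the 3 DB libraries (circles) and 3 HE libraries (squares). Of the 10 markers, Alb passed the test, with the DB libraries at 251 to 283 and the HE libraries at 486 to 738, while the adipocyte markers overlap between the groups.

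Between DB and HE rats 239 of 32276 genes tested (0.74%) passed an adjusted p of 0.05 in limma on log2(value + 1), adjusted over all genes by the Benjamini-Hochberg procedure. Of these, 112 rose in DB (0.347% of all tested) and 127 fell (0.393%). A linear model fitted to each gene alone, which shares no variance between genes, called 0 genes. The log2 fold changes, on the log2(value + 1) scale and with DB over HE, ran between 0.48 and 2.40 for the genes that rose (median 0.80) and between -0.49 and -3.48 for those that fell (median -0.87). A change of more than 1 on this scale was seen in 21 of the risen and 51 of the fallen genes, beside a median of 0.0053 over all genes tested. In bulk tissue, fewer cells of a type and less RNA per cell cannot be told apart. Non-overlapping groups were found in 14.1% of genes tested, since the 3 DB values lay wholly above the 3 HE values in 6.84% of genes and wholly below in 7.27%, and 9.56% of genes had an unadjusted p under 0.05. Of the 239 genes that passed, 238 had groups that did not overlap.

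Calls became more frequent with level. With the genes cut into 4 bins of 8069 by mean value, 0.0372% passed in the lowest bin, then 0.186%, 0.781% and 1.96% in the next 3, while the median standard error of the log2 fold change was 0.45, 0.26, 0.17 and 0.13 over the same bins. By the type that the RefSeq annotation gives, 160 of the 239 were protein coding, 77 that rose and 83 that fell, out of 18300 tested (0.874%). Genes named only by a genomic clone counted 51 (29 rose, 22 fell) of 7814. Genes named after an Rfam family counted 15 (3 rose, 12 fell) of 3799. Of the 12 that fell, 8 carry the name of 1 family, RF00017, and 7 of these 8 kept their call in at most 1 of the 6 fits that leave out a library. Of 347 miRNA genes 2 passed and both fell. The olfactory receptor genes had 2 calls of 1140, Olr481 (log2 fold change 0.89 ± 0.19, SE) and Olr332 (0.92 ± 0.20), which both rose. Olr481 had 45.7 to 59.0 in the DB libraries and 20.8 to 30.4 in the HE libraries, and Olr332 had 43.8 to 62.8 in the DB libraries and 20.8 to 33.6 in the HE libraries. Each kept its call in 2 of the 6 fits that leave out a library.

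**Figure D2:**
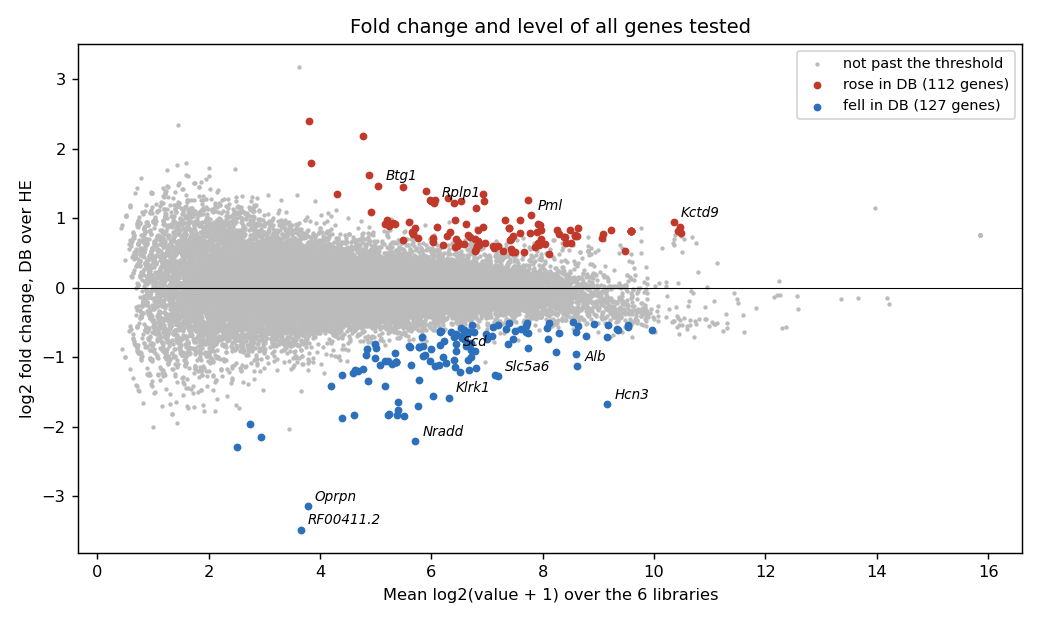
Log2 fold change (DB over HE) of each gene tested against its mean log2(value + 1) over the 6 libraries. Coloured points are the 112 genes that rose and the 127 that fell, and grey points are genes that did not pass; the scatter of the grey points is wider at low levels, where few genes passed.

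The gene with the smallest p-value was Nradd, which encodes a membrane protein with a death domain that is related to the p75 neurotrophin receptor. Its normalized values were 19.2, 30.8 and 21.7 in the DB libraries, against 119.6, 91.3 and 126 in the HE libraries. DB replicate 2 was the highest of the DB libraries and still far below the lowest HE library, with a log2 fold change of -2.20 ± 0.18 (SE, n = 3 each) and an adjusted p of 6.26e-06 in limma. Hcn3, a pacemaker-type cation channel opened by hyperpolarization, had 266, 450.2 and 271 in the DB libraries, against 1019, 906 and 1154 in the HE libraries. Here too DB replicate 2 was the highest of its group, yet far below each HE library, and the log2 fold change was -1.68 ± 0.16 (adjusted p = 3.61e-05). Both calls held when any 1 library was left out. Of 12 neurotrophin receptors and partners tested Nradd alone passed, and the median log2 fold change of the 12 was 0.0084.

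Slc5a6 encodes the sodium dependent transporter that brings biotin, pantothenate and lipoate into cells. It had values of 89.5, 100.4 and 88.9 in the DB libraries, against 220.3, 199 and 263 in the HE libraries. The DB libraries lay within a narrow band at less than the lowest HE value, with a log2 fold change of -1.27 ± 0.13 and an adjusted p of 3.61e-05. Among the 18 vitamin and cofactor transporters tested it was the only call, 3 had an unadjusted p under 0.05, and their median was -0.056. Ndc1, a transmembrane protein that anchors the nuclear pore, had 80.3, 95.5 and 94.9 in the DB libraries, against 214, 186 and 254 in the HE libraries. Its log2 fold change was -1.26 ± 0.13 (adjusted p = 4.65e-05), and as for Slc5a6 HE replicate 4 was the highest library. Of proteins acting on other proteins, the proteasome assembly chaperone Psmd9 had 37.4, 41.3 and 33.6 in the DB libraries, against 113, 90.5 and 135 in the HE libraries. Its DB values, 33.6 to 41.3, lay well below the HE range, with a log2 fold change of -1.55 ± 0.16 and an adjusted p of 3.89e-05.

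Klrk1, which encodes the activating receptor NKG2D of natural killer and T cells, had 43.8, 57.5 and 35.9 in the DB libraries, against 128, 126 and 158 in the HE libraries. No DB library came near the HE range, and the log2 fold change was -1.58 ± 0.16 (adjusted p = 3.89e-05). Itga4, the integrin alpha 4 chain with which lymphocytes and monocytes bind endothelium, had 82.2, 76.9 and 65.0 in the DB libraries, against 162, 146 and 194 in the HE libraries. The log2 fold change was -1.15 ± 0.13 (adjusted p = 0.000132). Il5ra, the interleukin 5 receptor subunit of eosinophils, had 287, 262 and 287 in the DB libraries, against 530.0, 484 and 609.5 in the HE libraries. The groups were separate by a wide margin, with a log2 fold change of -0.95 ± 0.12 (adjusted p = 0.000173). Of 24 T and NK cell genes Klrk1 was the only one to pass, with a list median of -0.099 and a summed value of 1147 to 1300 in the DB libraries and 1346 to 1441 in the HE libraries. In the macrophage list 0 of 16 passed in limma, edgeR or DESeq2 (2 at an unadjusted p under 0.05, Lyz2 and Cd68), and in the B cell list 0 of 10 passed with each tool (0 at an unadjusted p under 0.05).

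Albumin, the main plasma protein made by the liver, fell in DB. The DB values given above were all below the HE values, HE replicate 3 being the highest of all, with a log2 fold change of -1.12 ± 0.14 (adjusted p = 0.00016). Transferrin (Tf), the iron carrier of plasma, had 327, 303 and 308 in the DB libraries, against 425, 470.1 and 422 in the HE libraries. It passed narrowly (log2 fold change -0.49 ± 0.11, adjusted p = 0.0415), and leaving out any single library ended that call, with adjusted p-values of 0.0556 to 0.212. The other 22 hepatocyte markers tested did not pass. Ttr, the thyroid hormone carrier transthyretin, had a log2 fold change of -0.63 ± 0.19 (adjusted p = 0.183) with overlapping groups, Cyp2e1 had 0.46 ± 0.16 (adjusted p = 0.275), and Apoa1 and Serpina1 had -0.17 and -0.05. The summed value of the 24 was 2378 to 2469 in the DB libraries and 2695 to 3308 in the HE libraries, and their median log2 fold change was -0.11. The part that liver RNA may have in these values was not tested.

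The remaining protein coding genes among the 15 with the smallest p-values that fell were of mixed function. Lrrc23, a leucine rich repeat protein of the sperm flagellum, had 12.8, 25.1 and 21.7 in the DB libraries, against 67.2, 62.6 and 81.2 in the HE libraries, the largest change of these (-1.82 ± 0.22). Tgfb1i1, the focal adhesion protein Hic-5, had 54.8 to 67.2 in the DB libraries and 125 to 164 in the HE libraries. Cdc25b, a phosphatase that activates cyclin dependent kinases at entry into mitosis, had 72.1 to 76.7 in the DB libraries and 143 to 156 in the HE libraries, with very little spread among the DB libraries. For the transcriptional regulator Rai1 the range was 196 to 239.7 in the DB libraries and 404 to 423 in the HE libraries. The zinc finger gene Zbtb49 had 41.1 to 48.6 in the DB libraries and 91.3 to 111 in the HE libraries, and Mief2, a receptor for the fission machinery on the outer mitochondrial membrane, had 52.6 to 65.8 in the DB libraries and 108 to 155 in the HE libraries. Their log2 fold changes were -1.21, -0.99, -0.92, -1.13 and -1.14, with adjusted p-values from 0.000122 to 0.000367. All 15 fallen genes of this set, Nradd to Mief2, kept their call when any 1 library was left out, and 4 of them, Alb, Klrk1, Nradd and Hcn3, kept it with the share of reads on the 10 largest genes as a covariate.

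Among the genes that rose, Rplp1 had the smallest p-value of the protein coding ones. It encodes an acidic protein of the ribosomal stalk and had 115, 89.9 and 98.7 in the DB libraries, against 41.0, 34.7 and 53.8 in the HE libraries. The lowest DB value was well above the highest HE value, and the log2 fold change was 1.23 ± 0.16 (adjusted p = 0.000416). A second ribosomal protein, Rpl4, moved the other way, with 66.7, 48.6 and 61.3 in the DB libraries, against 122, 107 and 135 in the HE libraries (log2 fold change -1.03 ± 0.14, adjusted p = 0.000682). The 33 ribosomal protein genes tested had a median of 0.014, and apart from Rplp1 and Rpl4 none passed. Rpl28, which is not in that list, passed just inside the threshold and rose (log2 fold change 0.63 ± 0.15). Its call was lost in 5 of the 6 fits that leave out a library (adjusted p-values of 0.0949 to 0.321). The clone-named genes AABR07053837.1 and AABR07032328.1 had a log2(value + 1) within 0.20 and 0.18 of that of Rplp1 in each library and rose as well, by 1.27 and 1.25, and whether the 3 genes share reads was not tested. Slc5a6 and Ndc1, genes of unlike name, lay within 0.15 of each other on the same scale.

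Pml, the scaffold of PML nuclear bodies, had 371, 254 and 334 in the DB libraries, against 169, 129 and 162 in the HE libraries. DB replicate 2 was the lowest of its group and still above each HE library (log2 fold change 1.05 ± 0.14, adjusted p = 0.000416). Ruvbl1, an ATPase found in chromatin remodelling complexes, had 188, 145 and 167 in the DB libraries, against 98.1, 69.3 and 60.1 in the HE libraries. With HE replicate 2 closest to the DB range, the log2 fold change was 1.15 ± 0.16 (adjusted p = 0.000536). Uspl1, a protease that removes SUMO from proteins, had 606, 491 and 506 in the DB libraries, against 339.9, 265 and 276 in the HE libraries. It rose by 0.86 ± 0.13 (adjusted p = 0.000993). Cbx2, a Polycomb protein that binds methylated histone H3, had 189 to 260.2 in the DB libraries and 132 to 144 in the HE libraries (log2 fold change 0.74), but its call was lost without DB replicate 1 (adjusted p = 0.0637) or DB replicate 6 (0.0583).

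Osbpl1a, a sterol binding protein of late endosomes, had 336, 280.1 and 328 in the DB libraries, against 193, 165 and 182 in the HE libraries, and its groups were separate with a log2 fold change of 0.80 ± 0.12 (adjusted p = 0.000944). Atp1b3, a beta subunit of the sodium pump, had 154, 111 and 141 in the DB libraries, against 77.2, 72.7 and 61.7 in the HE libraries. Its log2 fold change was 0.92 ± 0.14 (adjusted p = 0.00187). These 2 genes, Rplp1, Pml, Ruvbl1 and Uspl1 were the 6 of the 15 risen protein coding genes that kept their call whichever library was left out. The other 9 lost it without at least 1 library, in 8 of them HE replicate 4. Kctd9, a substrate adaptor of cullin ubiquitin ligases, had 1893, 1708 and 1857 in the DB libraries, against 928, 1246 and 723 in the HE libraries. Its call (log2 fold change 0.95 ± 0.17, adjusted p = 0.0077) was lost without DB replicate 1 (0.0685), DB replicate 6 (0.0707) or HE replicate 4 (0.141). Car9, a carbonic anhydrase known as a target of hypoxia signalling, had 300.5 to 345 in the DB libraries and 126 to 229 in the HE libraries, with HE replicate 3 the highest of the HE libraries (log2 fold change 0.92 ± 0.16). It was lost without DB replicate 1 (0.0606) or HE replicate 4 (0.0617). HE replicate 3 was likewise the highest of its group for Spsb2, a SOCS box protein (497 to 504 in the DB libraries and 254 to 369 in the HE libraries), the serine protease Prss21 (417 to 444 in the DB libraries and 234 to 320.5 in the HE libraries) and the adhesion molecule Ncam2 (297 to 348 in the DB libraries and 172 to 231 in the HE libraries), with log2 fold changes of 0.76, 0.73 and 0.70. Nav3 (0.77), a microtubule binding protein of neurons, Tm4sf4 (0.76), a tetraspan membrane protein, and Cdip1 (0.68), a p53 target in cell death, complete the 15.

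**Figure D3:**
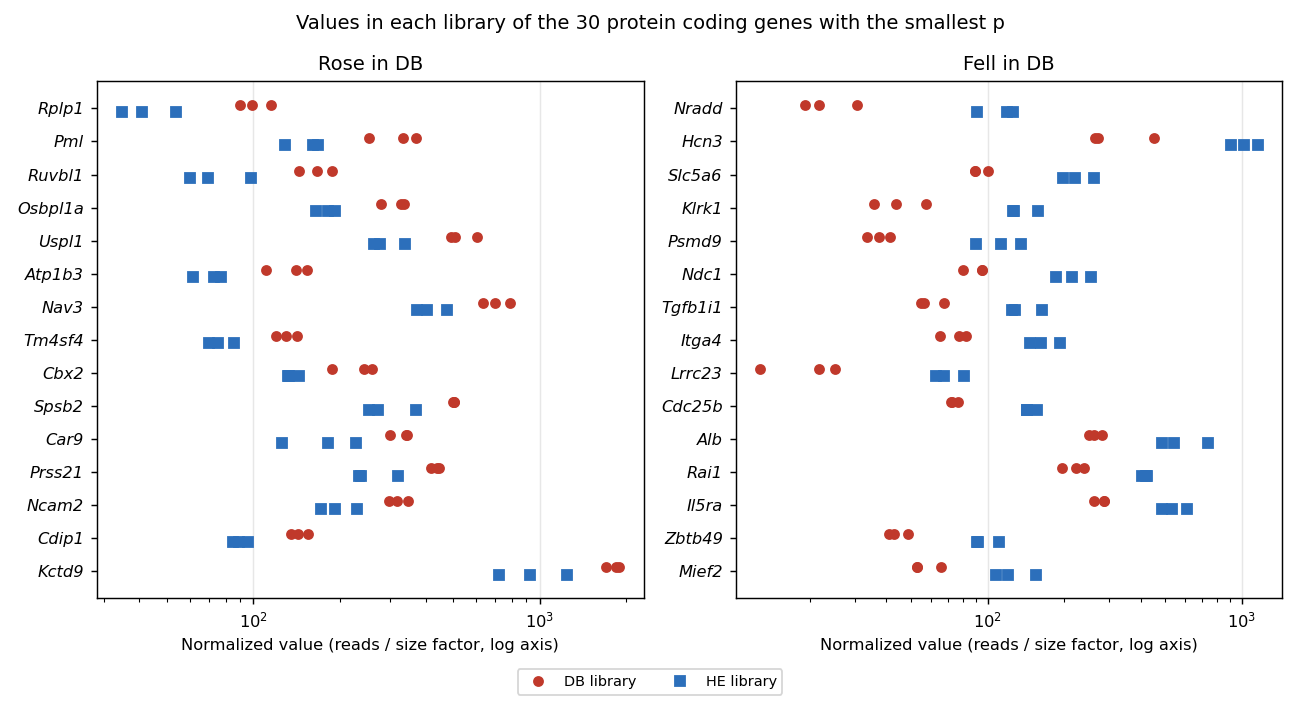
Normalized values (log axis) in each DB library (circles) and HE library (squares) of the 15 risen (left) and 15 fallen (right) protein coding genes with the smallest p. Nradd is at 19.2 to 30.8 in the DB libraries and 91.3 to 126 in the HE libraries, and in all 30 genes the DB and HE values do not overlap, which the choice of these genes required.

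To show where transcription of these genes begins, the promoter sequences of the 3 risen and the 3 fallen genes of smallest p that have an entry in the RefSeq promoter table (build GRCr8, from 250 bases before to 50 bases after the annotated start) are printed 5′ to 3′ on the strand of the gene. Capitals mark the CCAAT box (CCAAT, or ATTGG on the other strand) and the E-box CACGTG, which reads the same on both strands.
Rplp1 (chr8:71290823-71291122, minus strand): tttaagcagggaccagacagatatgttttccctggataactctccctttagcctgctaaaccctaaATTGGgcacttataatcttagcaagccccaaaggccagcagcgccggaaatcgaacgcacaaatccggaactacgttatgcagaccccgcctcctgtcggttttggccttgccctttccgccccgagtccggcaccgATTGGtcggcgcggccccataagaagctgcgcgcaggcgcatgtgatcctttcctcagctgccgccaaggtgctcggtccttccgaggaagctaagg
Pml (chr8:67554839-67555138, minus strand): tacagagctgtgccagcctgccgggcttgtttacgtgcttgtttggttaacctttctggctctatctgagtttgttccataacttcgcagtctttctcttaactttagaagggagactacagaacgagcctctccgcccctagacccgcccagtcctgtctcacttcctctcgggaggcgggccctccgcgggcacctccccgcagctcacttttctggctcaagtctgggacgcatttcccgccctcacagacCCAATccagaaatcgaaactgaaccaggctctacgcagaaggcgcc
Ruvbl1 (chr4:122489504-122489803, plus strand): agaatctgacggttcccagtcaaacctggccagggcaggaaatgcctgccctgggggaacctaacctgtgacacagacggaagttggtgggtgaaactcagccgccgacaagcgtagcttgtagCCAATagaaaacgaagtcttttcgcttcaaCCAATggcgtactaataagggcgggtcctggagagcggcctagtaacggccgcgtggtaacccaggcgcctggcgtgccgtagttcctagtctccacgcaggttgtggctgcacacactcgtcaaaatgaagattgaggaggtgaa
Nradd (chr8:119481165-119481464, minus strand): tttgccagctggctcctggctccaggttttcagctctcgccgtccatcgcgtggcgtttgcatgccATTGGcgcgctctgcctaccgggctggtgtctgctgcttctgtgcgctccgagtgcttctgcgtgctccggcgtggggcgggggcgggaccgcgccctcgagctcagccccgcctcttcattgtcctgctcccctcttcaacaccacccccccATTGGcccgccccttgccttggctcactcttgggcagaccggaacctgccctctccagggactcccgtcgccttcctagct
Slc5a6 (chr6:31040150-31040449, plus strand): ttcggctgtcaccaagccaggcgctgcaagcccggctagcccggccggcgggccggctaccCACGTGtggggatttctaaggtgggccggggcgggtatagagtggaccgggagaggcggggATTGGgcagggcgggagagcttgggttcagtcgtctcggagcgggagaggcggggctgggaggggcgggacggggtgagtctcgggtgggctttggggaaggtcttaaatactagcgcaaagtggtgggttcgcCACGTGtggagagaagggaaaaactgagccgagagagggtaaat
Klrk1 (chr4:164778333-164778632, minus strand): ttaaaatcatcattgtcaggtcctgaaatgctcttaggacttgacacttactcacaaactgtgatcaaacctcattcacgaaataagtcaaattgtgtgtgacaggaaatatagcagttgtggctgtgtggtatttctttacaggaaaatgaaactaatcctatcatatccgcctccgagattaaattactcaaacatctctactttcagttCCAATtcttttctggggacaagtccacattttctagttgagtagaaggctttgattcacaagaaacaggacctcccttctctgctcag
Each of the 6 holds at least 1 CCAAT box, Rplp1, Ruvbl1 and Nradd 2 each, and the promoter of Slc5a6 alone holds the E-box, at 2 places. The GC box GGGCGG (or CCGCCC) was found in all but that of Klrk1.

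Promoter entries matched 131 of the 239 genes by symbol, 58 that rose and 73 that fell. Searched on both strands, CCAAT was held by 25.9% of the promoters of genes that rose and 47.9% of those of genes that fell, beside 37.5% of all 33469 promoters of the same length. The E-box CACGTG was held by 3.45% and 9.59%, beside 6.42% of all. For the GC box the shares were 51.7% and 45.2%, beside 33.1%. The sterol regulatory element TCACNCCAC was found in 1 promoter of each set and in 1.12% of all, and the cyclic AMP response element TGACGTCA in 1 of each set and in 1.83% of all. GGGCGG and CCAAT were searched independently, and a match is a description of the letters in this window only. The 33469 promoters were not limited to genes tested and were not matched to the called genes by level or type.

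Over all gene types, the 5 fallen genes with the largest log2 fold changes were RF00411.2, Oprpn, RF00019.5, Nradd (-2.20, described above) and RF00432.15. RF00411.2, named after an Rfam family, had 1.83, 4.86 and 2.24 in the DB libraries, against 31.6, 29.6 and 73.4 in the HE libraries, that is a log2 fold change of -3.48 ± 0.37 (adjusted p = 4.78e-05). Oprpn, which encodes the precursor of an opiorphin-type peptide, had 0.913, 5.67 and 6.73 in the DB libraries, against 55.1, 19.4 and 57.8 in the HE libraries. The DB values stood for 1 to 9 reads per library, HE replicate 3 was the lowest of the HE group, and the log2 fold change was -3.14 ± 0.46 (adjusted p = 0.00102). RF00019.5 (0.810 to 2.74 in the DB libraries and 5.92 to 17.2 in the HE libraries) and RF00432.15 (0.747 to 6.48 in the DB libraries and 13.5 to 17.5 in the HE libraries) had log2 fold changes of -2.29 and -2.15, at a few reads per DB library. The first lost its call without DB replicate 6 (adjusted p = 0.0770), HE replicate 2 (0.112) or HE replicate 4 (0.197), and the second without DB replicate 1 (0.0917), DB replicate 6 (0.107), HE replicate 2 (0.114) or HE replicate 4 (0.151). In the other direction the clone-named gene AABR07044139.1 had 45.7, 22.7 and 28.4 in the DB libraries, against 6.72, 7.61 and 2.34 in the HE libraries and rose by 2.40 ± 0.36 (adjusted p = 0.00138). RF00600.2 (25.9 to 105 in the DB libraries and 5.46 to 20.3 in the HE libraries, log2 fold change 2.19), AABR07007839.1 (1.80), AABR07041247.2 (1.62) and Btg1 (1.47), an inhibitor of proliferation, were the next largest, and each of these 4 lost its call without DB replicate 1 and likewise without HE replicate 4 (adjusted p-values from 0.0933 to 0.270), and without 1 or 2 further libraries. Clone-named genes with the smallest p were AABR07001896.1 (113 to 132 in the DB libraries and 43.7 to 55.4 in the HE libraries), AABR07012786.1 (174 to 217 in the DB libraries and 58.3 to 90.7 in the HE libraries) and AABR07026997.1 (84.2 to 111 in the DB libraries and 29.6 to 42.1 in the HE libraries), all risen, by 1.29, 1.35 and 1.40.

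The 2 miRNA genes that passed were Mir377 and Mir615. A miRNA silences target mRNAs that pair with its seed, bases 2 to 8. Mature sequences from RefSeq (GRCr8) are given with the seed in capitals, since the seed decides which targets can pair. The reads counted here fall on the miRNA gene and do not tell a mature arm from its precursor.
rno-miR-377-5p: aGAGGUUGcccuuggugaauuc
rno-miR-377-3p: uGAAUCACacaaaggcaacuuuu
rno-miR-615: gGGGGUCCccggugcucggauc
The 3 seeds differ from each other. Mir377 had values of 38.3, 40.5 and 27.7 in the DB libraries, against 74.6, 60.0 and 57.0 in the HE libraries. Its DB values lay below all HE values (log2 fold change -0.84 ± 0.18, adjusted p = 0.0293). Mir615 had 112, 159.5 and 126 in the DB libraries, against 193, 214 and 187 in the HE libraries, again with no overlap (log2 fold change -0.59 ± 0.13, adjusted p = 0.0404). Leaving out DB replicate 1, DB replicate 6, HE replicate 2 or HE replicate 4 ended both calls, with adjusted p-values of 0.0718 to 0.222, and leaving out HE replicate 3 ended that of Mir615 (0.0736). The next smallest p among miRNA genes was that of Mir26a (1.83 to 2.43 in the DB libraries and 6.05 to 13.3 in the HE libraries, log2 fold change -1.68 ± 0.41, adjusted p = 0.0645), which did not pass.

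Lipid metabolism was examined with lists of genes. Of 23 genes of fatty acid and triglyceride synthesis, 1 passed. It was Scd, the desaturase that makes oleate, with 65.7, 61.5 and 59.0 in the DB libraries, against 98.1, 112 and 147 in the HE libraries. All DB libraries were lower (log2 fold change -0.91 ± 0.15, adjusted p = 0.00321), and the call was lost without HE replicate 4 (0.0603). The median of the list was -0.053, and 5 of the 23 had an unadjusted p under 0.05. Of 25 genes of cholesterol synthesis and uptake Sc5d passed, the enzyme that forms 7-dehydrocholesterol, with 172, 178 and 158 in the DB libraries, against 255, 279.9 and 259 in the HE libraries (log2 fold change -0.64 ± 0.11, adjusted p = 0.00583). It lost the call without DB replicate 6 (0.0626) or HE replicate 4 (0.0511), and the list median was -0.010. In the list of 34 genes of fatty acid oxidation and ketogenesis 1 rose and 1 fell. Ehhadh, a peroxisomal beta oxidation enzyme, had 55.7, 51.0 and 62.8 in the DB libraries, against 83.3, 84.6 and 92.9 in the HE libraries (log2 fold change -0.62 ± 0.14, adjusted p = 0.0409). Creb3l3, a transcription factor of hepatic and intestinal lipid metabolism, had 197, 158 and 152 in the DB libraries, against 105, 131 and 105 in the HE libraries (log2 fold change 0.57 ± 0.13, adjusted p = 0.0499). DESeq2 called neither, and 5 single-library removals for Ehhadh and 4 for Creb3l3 ended the call. Cyp2c23, an epoxygenase of arachidonic acid in rat kidney, was the 1 call among 50 cytochrome P450 genes (log2 fold change -0.65 ± 0.13, adjusted p = 0.0217), and Aurkb, a kinase of mitosis, the 1 call among 26 cell cycle genes (log2 fold change 0.55 ± 0.12, adjusted p = 0.0311). Both calls ended without DB replicate 1 (0.128 and 0.115), DB replicate 6 (0.0790 and 0.236), HE replicate 2 (0.0673 and 0.0935) or HE replicate 4 (0.188 and 0.190).

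Over all genes tested 0.74% passed in limma and 9.56% had an unadjusted p under 0.05. A short list without a call is therefore no finding about that list, here or above. In 24 of the 34 lists with members tested no gene passed in limma. These 24 lists held 476 genes, of which 45 had an unadjusted p under 0.05, edgeR called 0 and DESeq2 called 1 (Timp2, an inhibitor of matrix metalloproteinases, with 465 to 532 in the DB libraries and 627 to 784 in the HE libraries). Of 41 genes of insulin and IGF signalling 0 passed and 5 had an unadjusted p under 0.05, with a list median of 0.036. Foxo1, the transcription factor that insulin keeps out of the nucleus, had 766, 806 and 829.6 in the DB libraries, against 1019.6, 1199 and 997 in the HE libraries, which do not overlap (log2 fold change -0.42 ± 0.13, adjusted p = 0.183). Pik3r2, a regulatory subunit of phosphoinositide 3-kinase, had 179.9, 251 and 199.6 in the DB libraries, against 140.4, 199 and 139 in the HE libraries, which overlap (log2 fold change 0.40 ± 0.15, adjusted p = 0.321). In glycolysis, gluconeogenesis and glycogen metabolism 0 of 35 passed (3 at an unadjusted p under 0.05, median -0.010), the gluconeogenic phosphatase Fbp1 having -0.44 ± 0.16 (adjusted p = 0.336). Amino acid breakdown and the urea cycle had the lowest median of all lists, -0.13, with 5 of 26 genes above 0, 2 at an unadjusted p under 0.05 and 0 passing. Agxt, the peroxisomal alanine glyoxylate transaminase, led it with 82.2, 74.5 and 81.5 in the DB libraries, against 100.1, 112 and 105 in the HE libraries (log2 fold change -0.41 ± 0.12, adjusted p = 0.179). Glucocorticoid response genes had the highest median, 0.14, with 11 of 15 above 0, 2 at an unadjusted p under 0.05 and 0 passing. Per1, a clock gene induced by glucocorticoids, had 512, 659 and 587 in the DB libraries, against 357, 553 and 348 in the HE libraries, and HE replicate 3 overlapped the DB range (log2 fold change 0.51 ± 0.15, adjusted p = 0.177).

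The remaining lists had medians of -0.12 (kidney and adrenal markers, 2 of 10 genes above 0) to 0.051, beside 0.0053 over all genes tested. In each of these lists 0 genes passed in limma. They were the circadian clock (21 genes, 5 at an unadjusted p under 0.05), the unfolded protein response (28, 2), inflammatory mediators (24, 2), interferon response (25, 3), antioxidant defence (30, 3), bile acid and sterol transport (27, 3), lipoprotein assembly and clearance (22, 3), matrix and fibrosis (26, 4), heat shock and protein folding (21, 0) and nuclear encoded oxidative phosphorylation (33, 1). Markers of endothelium (13, 1), skeletal muscle (6, 1), stroma and mesothelium (12, 1), kidney and adrenal (10, 1), pancreas (8, 1), neurons (8, 0) and erythroid cells (7, 0) were the others. These counts stand beside 0.74% of all genes tested that passed and 9.56% at an unadjusted p under 0.05. Within these lists Pdia4, a disulfide isomerase of the endoplasmic reticulum, had 0.47 ± 0.13 (adjusted p = 0.114), and Hspa5, the chaperone BiP of the same list, -0.49 ± 0.22 (adjusted p = 0.489). Apoe, an apolipoprotein of remnant particles, had -0.39 ± 0.12 (adjusted p = 0.215), and Mttp, which loads lipid onto nascent lipoproteins, 0.35 ± 0.14 (adjusted p = 0.415). Slc27a5, which forms bile acid CoA esters, had -0.47 ± 0.12 (adjusted p = 0.0858), all as log2 fold changes. Mitochondrially encoded genes were sought by 13 gene symbols only and none was matched. Whether the data hold them under other names, such as clone-type names, was not tested. Over all lists 726 distinct genes were tested, of which 3 rose and 10 fell (1.79%, against 0.74% of all genes tested). These lists were drawn up with earlier results of the same libraries known and were not matched to all genes by level or type. That share is therefore a description. Of all protein coding genes 0.874% passed, and by level 0.781% in the third and 1.96% in the highest of the 4 bins.

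**Figure D4:**
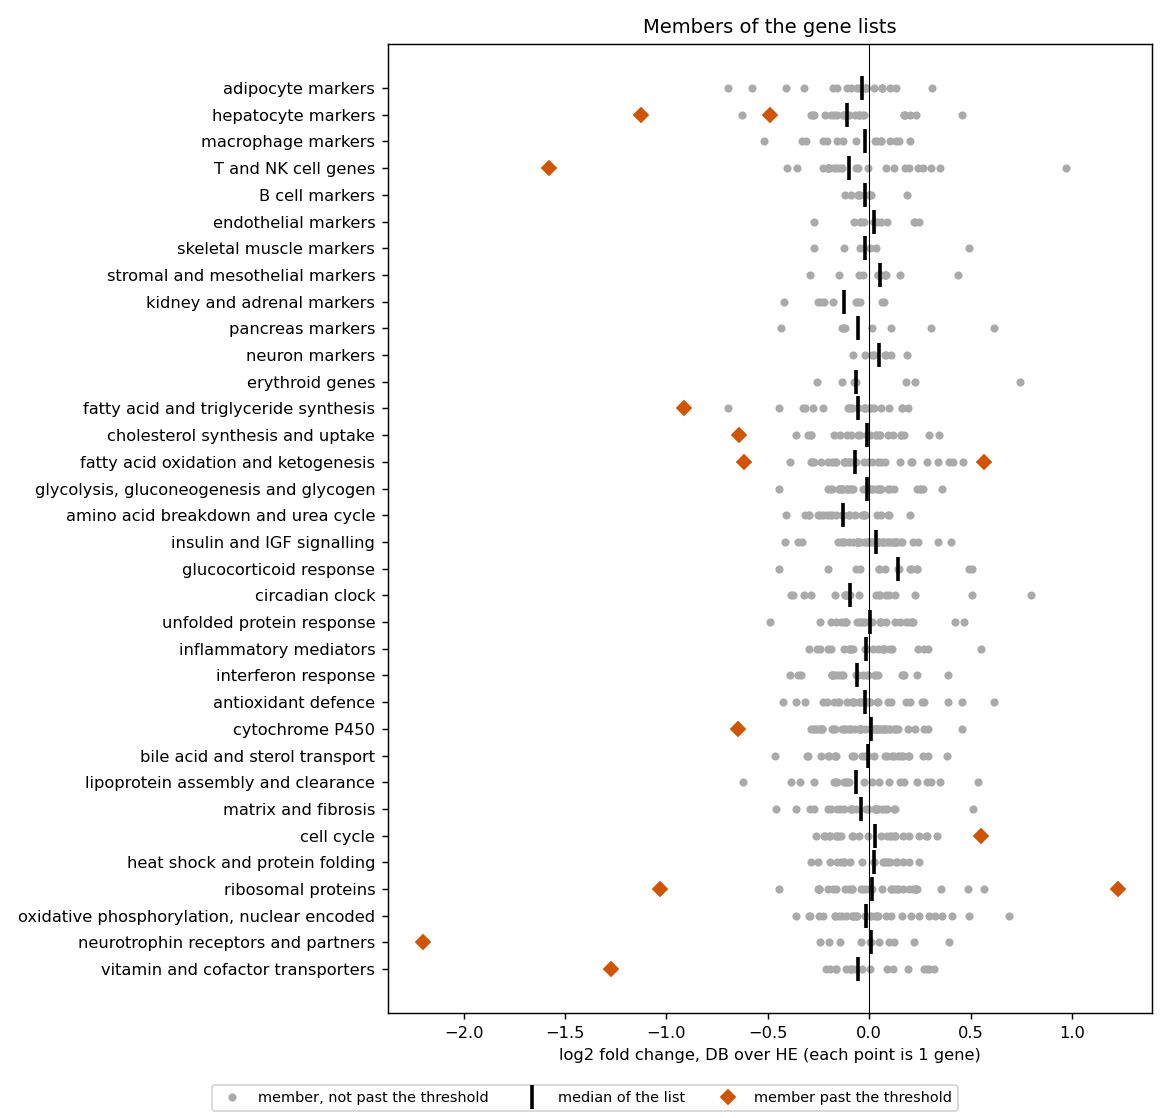
Log2 fold change (DB over HE) of each member of 34 gene lists, 1 row per list, with members past the threshold as diamonds and the list median as a vertical bar. The list medians run from -0.13 to 0.14 and the 13 distinct genes past the threshold sit singly or in pairs among members that did not pass.

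The genes that passed varied with the library within the HE group. HE replicate 3 was the highest of the HE libraries in 63.4% of the genes that rose and in 28.3% of those that fell, against 35.9% of all genes tested. HE replicate 4 was the highest in 15.2% of the genes that rose and in 56.7% of those that fell, against 31.4% of all. The full order of replicates 3, 2 and 4, high to low, was found in 54 of the 112 genes that rose (48.2%) and in 17.1% of all genes, and the reverse order in 42 of the 127 that fell (33.1%) and in 15.8% of all. The same order, 16.1%, 11.5% and 10.2%, holds for the share of reads on the 10 largest genes, which was higher still in each DB library. Relative to the HE mean, the genes that rose had a median log2 value of 0.81, 0.77 and 0.77 in DB replicates 1, 2 and 6, against -0.023, 0.21 and -0.13 in HE replicates 2, 3 and 4. The genes that fell had -0.93, -0.81 and -0.91 in these DB libraries, against -0.037, -0.052 and 0.096 in these HE libraries. With this share as a covariate, an alternative chosen after seeing the data, 48 genes passed (25 rose, 23 fell), of which 19 were among the 239. Nradd (-1.94), Hcn3 (-1.60), Klrk1 (-1.51), Alb (-1.57), Rplp1 (1.77), Pml, Osbpl1a (1.03) and Uspl1 (1.06) were among the 19, with the log2 fold change of that fit in brackets for 7 of them. Of the 15 protein coding genes with the smallest p-values in each direction, 11 that rose and 11 that fell did not pass in it. Those that rose include Kctd9 (0.34), Car9 (0.23), Spsb2 (0.27), Prss21 (0.30) and Ncam2 (0.29), and those that fell include Slc5a6 (-1.01, adjusted p = 0.0709), Psmd9 (-1.14, 0.129), Ndc1 (-0.94, 0.125), Itga4 (-0.86, 0.206) and Il5ra (-0.66, 0.229). Rpl4 (-0.65, 0.502) and Scd (-0.71, 0.470) did not pass in it either. Since the share was higher in each DB library than in any HE library, the fit can only partly separate share from group. It also leaves fewer residual degrees of freedom, so a call lost in it cannot be assigned to the share.

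**Figure D5:**
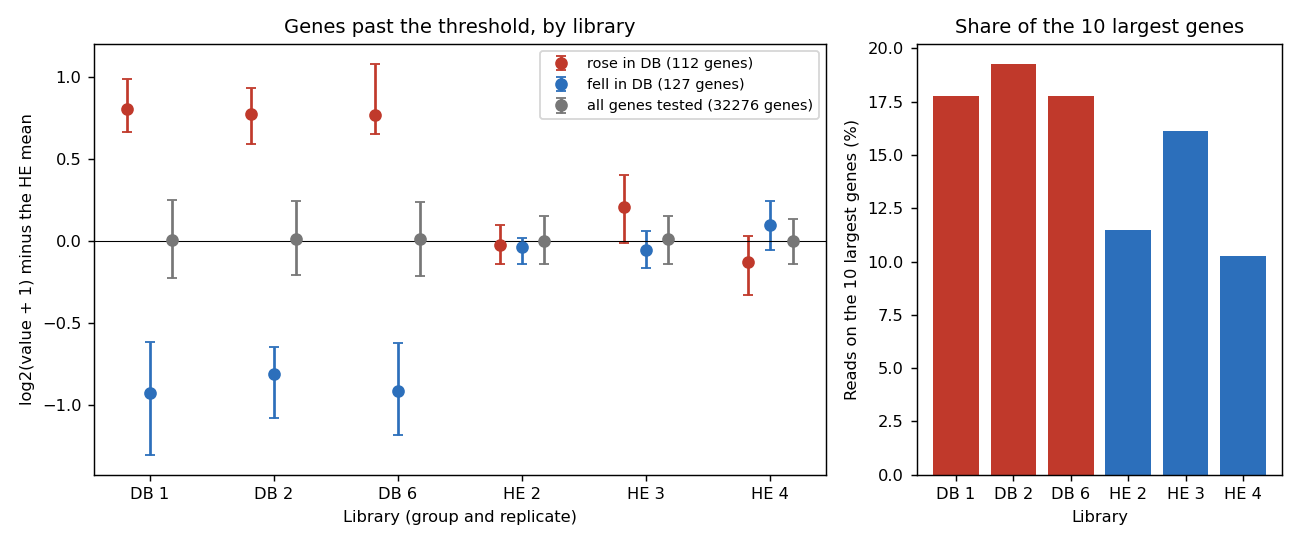
Left, log2(value + 1) minus the mean of the HE libraries, as median and quartiles over the genes that rose, those that fell and all genes tested, for each library; right, the share of each library's reads on its 10 largest genes (%). HE replicate 3, with a share of 16.1%, has the risen genes at a median of 0.21, between the other HE libraries and the DB libraries.

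Single libraries also set how many genes passed. Without DB replicate 1, 2 or 6 the count was 93, 371 or 92, and without HE replicate 2, 3 or 4 it was 146, 481 or 61. Of the 239 genes, 52 passed in all 6 of these fits, 15 that rose and 37 that fell. Scaling each library to its total in place of the deposited factors gave 366 genes, 110 risen and 256 fallen, so that 30.1% had risen, against 46.9% (112 risen and 127 fallen) in the reported fit. At the edge of the threshold, Rpl28, AABR07049032.1 and Creb3l3 passed with adjusted p-values of 0.0497, 0.0499 and 0.0499, and Psmc4, Pibf1 and Fbl did not, with 0.0508, 0.0516 and 0.0516, so these 6 genes differ little in support.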

How the data were processed

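Total RNA was sequenced in 3 DB and 3 HE libraries. The deposited signal values are reads per gene divided by 1 size factor per library. For the aligner, the counter and the strand setting, the tool is not given in the sources used here. Mouse builds (GRCm38, mm10) stand in the submitters' processing notes, although gene names are those of rat. Whole reads were recovered by undoing that factor (100% of values whole within 0.1 reads) and served the count tests. The 3 columns of the extract group were not used.

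The 32276 genes whose mean reached 1 in either group (of 32883 listed, 25 of them named by a date) were tested with limma 3.58.1 (R 4.3.3), with a trend, on log2(value + 1), two-sided, with 4 residual degrees of freedom, no covariate, and Benjamini-Hochberg adjustment at 0.05 over all genes. The methods of the study name a t-test with the same adjustment. Fold changes on this scale understate the change of low genes.

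Alternatives were a linear model fitted to each gene alone, edgeR 4.0.16, DESeq2 1.42.0 and limma-voom (these 3 on whole reads), TMM, total-count and upper-quartile scaling, no filter, at least 10 reads, a pseudocount of 0.1, genes of equal reads kept once, library weights and each library left out. edgeR called 212 of 26015 genes. The share of the 10 largest genes as a covariate was added after seeing the data. Scripts were tested on simulated data.

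Genes are named by these rules: the 15 risen and 15 fallen protein coding genes of smallest p without overlap, the 5 largest changes each way, up to 4 called members of each list (otherwise up to 2 of smallest p), 3 miRNA, 3 Rfam-named and 3 clone-named genes, 10 markers, and 3 genes on each side of the threshold. The comparison, the 35 gene lists and these rules were chosen with earlier results of these data known. Gene types, matched by symbol for 18997 genes (57.8%), promoters and miRNAs come from RefSeq (GRCr8); the miRNA table holds 309 of the 347 miRNA genes tested.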

Additional observations from a re-analysis of the deposited data

How the results depend on the processing

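The count of 239 genes (112 risen, 127 fallen) stayed within 1.5 times with edgeR (212, of which 206 shared), DESeq2 (224, 162 shared), limma-voom (246, 219 shared), TMM or upper-quartile scaling, no filter, a read minimum, a pseudocount of 0.1, genes of equal reads kept once, and library weights, with totals of 166 to 306. Total-count scaling gave 366 (110 risen, 256 fallen). A gene by gene linear model, which shares no variance between genes, gave 0 risen, 0 fallen and 0 in all, with 2592 genes at an unadjusted p under 0.05. The share of the 10 largest genes as a covariate gave 48 (25 risen, 23 fallen). Leaving out 1 library at a time gave 61 to 481 genes, 23 to 276 risen and 38 to 222 fallen. Each of these counts was lowest without HE replicate 4. The total and the risen count were highest without HE replicate 3, and the fallen count was highest without DB replicate 2. No paired analysis was possible because the groups share only replicate number 2. Over 18 of these alternatives, the linear model excepted, 17 genes kept their call. The protein coding ones were Nradd, Hcn3, Klrk1, Alb, Rplp1, Pml, Osbpl1a and Uspl1. The clone-named ones were AABR07001896.1, AABR07012786.1, AABR07026997.1, AABR07070238.1, AABR07053837.1, AABR07033184.1 and AABR07032328.1, all risen. LOC103691005, which rose, and LOC100911107, which fell, have no type in the annotation and complete the 17. Some genes that had not passed changed sign. With the covariate these were Syn1 (-0.088), Pik3r2 (-0.19), Per1 (-0.19), Keap1 (-0.00708), Mttp (-0.13), Col6a1 (-0.17), Adipoq (-0.040), Plin1 (-0.44) and Fabp4 (0.38). Over the single libraries left out, log2 fold changes ran over -0.034 to 0.22 for Syn1, -0.23 to 0.059 for Lep, -0.10 to 0.21 for Plin1, -0.16 to 0.23 for Fabp4, -0.16 to 0.19 for Cidec and -0.090 to 0.00845 for Serpina1. Fabp4 was also turned by edgeR (0.016) and weights (0.0050), and Cidec by total-count scaling (-0.029) and weights (-0.021). The cause was not tested. At the depth of these libraries, changes of genes in the lowest of 4 bins of mean value could seldom be resolved (3 of 8069 genes passed).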

Other observations

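Some further genes past the threshold were named after their values were seen. The type I interferon genes Ifna2 and Ifna5 had 18.3, 36.4 and 15.7 in the DB libraries, against 67.2, 68.5 and 96.8 in the HE libraries (Ifna2) and 16.4, 38.9 and 14.9 in the DB libraries, against 70.5, 68.5 and 97.6 in the HE libraries (Ifna5), with log2 fold changes of -1.76 ± 0.24 and -1.82 ± 0.26 (SE, n = 3 each). Their log2(value + 1) lies within 0.14 of each other in each library, and the clone-named AABR07049128.1 lies within 0.19 of Ifna2. Calls of unlike name lie as close, such as Cyp2c23 and Ern2 (0.13), Cbx2 and Catsperd (0.14) and Slc5a6 and Ndc1 (0.15). Whether reads are shared between near copies cannot be told from these values. S100a9, a calcium binding protein of neutrophils, had 118, 93.1 and 109 in the DB libraries, against 173, 172 and 171 in the HE libraries, and the HE libraries were almost level (log2 fold change -0.69 ± 0.12). Cxcl13, a chemokine that attracts B cells, had 117, 93.9 and 90.4 in the DB libraries, against 50.4, 64.3 and 64.0 in the HE libraries and was higher in DB (0.74 ± 0.15). Lifr, the receptor of leukemia inhibitory factor, fell (70.3 to 87.4 in the DB libraries and 138 to 173 in the HE libraries), as did C8b, a component of complement (59.3 to 84.5 in the DB libraries and 102 to 134 in the HE libraries). Slc27a2, which takes up and activates very long chain fatty acids, had 727, 884 and 822 in the DB libraries, against 1231, 1284 and 1163 in the HE libraries (-0.60 ± 0.13). Fbxo32, a ubiquitin ligase known from muscle wasting, had 187, 169 and 171 in the DB libraries, against 243, 249 and 254 in the HE libraries and was lower in DB (-0.50 ± 0.11). Ago4, an Argonaute protein of small RNA silencing, was at 65.6 to 68.5 in the DB libraries, with a wider 113 to 201 in the HE libraries (-1.18 ± 0.16). Of the 6 fits that leave out a library, Fbxo32 kept its call in 1, Slc27a2 in 2, Cxcl13 and C8b in 3 each and S100a9 in 5, and Ifna2, Ifna5, Lifr and Ago4 kept it in all 6.

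Several calls are not independent of each other. The 239 genes have 231 distinct read profiles. AABR07063425.1, AABR07063425.2, AABR07015056.1, AABR07015067.2, AABR07015081.1 and AABR07063462.1, all risen, have identical reads. So do Tas2r143 and LOC103690198, and so do LOC100910611, LOC100910953 and AABR07002736.1, all fallen. Lrrc23 and LOC100911585 agreed within 0.05 on the log2 scale over the libraries, Spsb2 and LOC100911548 within 0.08, and AABR07017745.4 and AABR07017825.1 within 0.06. Pld1 and AABR07013200.1 agreed within 0.075. Whether the pairs without identical reads share some reads was not tested. The 7SL RNA gene Rn7sl1 (55.9 to 81.3 in the DB libraries and 106 to 138 in the HE libraries, log2 fold change -0.69 ± 0.15) lost its call whichever library was left out. Its log2(value + 1) lay within 0.17 of those of the Rfam-named RF00017.10, RF00017.17, RF00017.21 and RF00017.28 in each library, which fell as well and also lost their calls in all 6 such fits. RF00017.12 (117 to 182 in the DB libraries and 226 to 353 in the HE libraries, -0.87 ± 0.17) kept its call in 5 of them. Of 158 called genes that could be placed in the RefSeq gene order, 4 pairs were next to each other among the 17115 tested genes so placed. Genes not matched by symbol were skipped and may lie between them. RT1-M6-1 and RT1-M6-2 both rose, whereas Cdca2 and Kctd9, Nhlh2 and Casq2, and Lrrc23 and Spsb2 changed in opposite directions within each pair.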
